A study of Mus musculus with 3 samples.

Results

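The CD300 receptors are a family of cell-surface proteins of the immunoglobulin type, encoded side by side in the mouse genome and carried mainly by myeloid cells. They were followed here in macrophages sorted from the spleens of leukemic mice. The 9 members (Cd300a, Cd300lf, Cd300lb, Cd300c2, Cd300e, Cd300ld, Cd300ld3, Cd300ld5 and Cd300lg) were found by NCBI gene ID among 17615 genes listed in any library. All 9 were found, and 2 further genes with a Cd300 symbol, Cd300c and Cd300ld4, are given beside them. The family was chosen by measured values: Cd300ld5, Cd300ld3 and Cd300ld were among the genes with the lowest values in the mM-CSF library relative to the control. The differences between the libraries are therefore a description of them, and nothing is supported with these differences.

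There were 3 RNA sequencing libraries, 1 for each kind of leukemia. By the labels, the leukemia had a high level of mM-CSF in the first and of sM-CSF in the next, and neither is named for the control. Whether the control leukemia cells made M-CSF of their own is not stated. The control was identified by a title that names leukemia without either form, read with a protocol that lists cells with none. M-CSF is encoded by Csf1 and keeps macrophages alive and growing; what the prefixes m and s stand for is not spelled out in the labels. All mice were C57BL/6J, were 6 to 8 weeks old at transplantation, and received 800000 GFP+BFP+ leukemia cells each without irradiation, so that their own blood cells remained. Animals of this kind survived 30 to 40 days, and GR1-, CD115-intermediate, F4/80+ spleen cells were sorted on day 18. Every library, the control included, thus came from a leukemic mouse, and no healthy spleen was part of the comparison. How many animals went into a library, and how the leukemia was made, is not stated in the labels. With 1 library a group there was no spread between replicates, no test was possible and no p-value is given.

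CD300 receptors work as a paired system. Inhibitory members carry tyrosine motifs in a long tail and recruit phosphatases such as SHP-1, the product of Ptpn6, whereas activating members have a short tail and signal through the adaptors DAP12 (Tyrobp) or the Fc receptor gamma chain (Fcer1g). Several of them bind lipids exposed on dying cells, among them phosphatidylserine and phosphatidylethanolamine, and in macrophages and mast cells they raise or restrain activation. Cd300a and Cd300lf are the inhibitory members here. Cd300lb, Cd300c2 and Cd300ld are activating, and Cd300e is known as an activating receptor from human monocytes. Cd300ld3 and Cd300ld5 were placed in the activating group by their sequence likeness to Cd300ld. Cd300lg, also called nepmucin, is an adhesion molecule of endothelial cells.

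The members that stood lowest are close copies of one another, so their sequences come first. The first coding exon is shown for Cd300ld5, its neighbours Cd300ld4 and Cd300ld3, and Cd300ld, from the GENCODE vM21 transcripts of the GRCm38 build, 5′ to 3′ on the minus strand of chromosome 11. Capitals mark the bases that differ from Cd300ld5. The positions are chr11:115037616-115037655 for Cd300ld5, chr11:115026859-115026898 for Cd300ld4, chr11:115048256-115048295 for Cd300ld3 and chr11:114989771-114989810 for Cd300ld.
Cd300ld5: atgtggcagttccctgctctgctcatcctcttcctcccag
Cd300ld4: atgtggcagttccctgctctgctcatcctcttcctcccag
Cd300ld3: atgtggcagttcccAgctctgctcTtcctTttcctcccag
Cd300ld: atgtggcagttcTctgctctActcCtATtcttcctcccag
In these 40 bases Cd300ld4 had 0 differences from Cd300ld5, Cd300ld3 had 3 and Cd300ld had 5.

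Over the whole coding sequence, 99.6% of aligned positions of Cd300ld3 and Cd300ld5 were identical, as were 99.9% of those of Cd300ld4 and Cd300ld5. Cd300ld and Cd300ld3 were identical at 77.3%. Cd300a and Cd300c2, an inhibitory and an activating member, were identical at 58.4%, and Cd300ld and Cd300lf at 55%. Gapped positions count as differences here, and Cd300ld and Cd300lf had 560 identical, 96 mismatched and 362 gapped positions. Pairs within the activating group were not always more alike, with 54.1% for Cd300c2 and Cd300e. A stretch of 50 bases stands in for a sequencing read, since no source used here gives the read length. Of the 803 such stretches of the Cd300ld5 transcript, 100% also occurred in a transcript of another gene, so that no stretch of this length told Cd300ld5 from its copies. The same held for 93.8% of Cd300ld4 and 82.1% of Cd300ld3, which kept 144 stretches of its own. Far less was shared by Cd300c2 (8%), Cd300lf (6.75%), Cd300ld (3.89%), Cd300a (3.59%) and Cd300lg (0.149%), and 0 stretches by Cd300lb, Cd300e and Cd300c.

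The deposited counts bear the same mark. They are estimates that may divide a read between genes, and fractions appear when reads are split in this way. Cd300lb and Cd300e had whole counts in all 3 libraries, within 0.005, and the other 7 members had a count that was not whole in each library that listed them. Over all listed genes, 76.7% had a whole count in the mM-CSF library, 75.9% in the sM-CSF library and 75.7% in the control. The division among Cd300ld3, Cd300ld4 and Cd300ld5 is thus uncertain, and their sum is given beside the single values.

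The bases upstream of the start of Cd300ld5, Cd300ld3 and Cd300ld are shown because the low values of these genes chose the family. They are 250 bases long and end at the base before the annotated start, from RefSeq on GRCm38.p6, 5′ to 3′ on the minus strand. They lie at chr11:115037691-115037940, chr11:115048331-115048580 and chr11:114989887-114990136. Capitals mark the letters GAGGAAGT, of the kind bound by PU.1, a factor of the myeloid lineage.
Cd300ld5: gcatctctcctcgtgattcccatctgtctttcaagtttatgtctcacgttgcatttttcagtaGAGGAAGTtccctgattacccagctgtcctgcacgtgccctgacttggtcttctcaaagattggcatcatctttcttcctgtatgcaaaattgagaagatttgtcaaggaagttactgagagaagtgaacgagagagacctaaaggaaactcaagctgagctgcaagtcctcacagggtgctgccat
Cd300ld3: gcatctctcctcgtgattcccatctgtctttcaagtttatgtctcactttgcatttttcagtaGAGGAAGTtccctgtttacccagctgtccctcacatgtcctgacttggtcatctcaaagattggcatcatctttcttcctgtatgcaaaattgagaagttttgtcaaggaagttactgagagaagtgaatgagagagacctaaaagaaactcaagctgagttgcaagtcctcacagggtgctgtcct
Cd300ld: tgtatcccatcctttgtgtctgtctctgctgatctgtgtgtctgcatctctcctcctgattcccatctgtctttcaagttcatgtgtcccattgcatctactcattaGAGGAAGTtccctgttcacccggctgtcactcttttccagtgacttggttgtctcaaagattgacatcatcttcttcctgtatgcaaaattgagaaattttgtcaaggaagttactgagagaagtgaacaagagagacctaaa

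Motifs were searched in the promoter window, which runs from 250 bases before to 50 after the start, on both strands. GAGGAAGT began 187 bases upstream of the start in Cd300ld3, Cd300ld4 and Cd300ld5, 143 bases upstream in Cd300ld, and at the first transcribed base in Cd300lf. It was thus in 5 of the 10 CD300 promoters of the RefSeq table, and in 3.2% of the 32851 promoters of all genes. The promoters of Cd300ld4 and Cd300ld5 were identical, and that of Cd300ld3 matched them at 285 of 300 bases, so these matches are not separate observations. TGACTCA (AP-1) and AAAGGTCA (of the kind bound by Nr4a1) were in 0 of the 10 windows, against 5.2% and 1.51% of all promoters. TTGCNNAA (C/EBP) was found in Cd300a alone of the 10, with 10.8% among all promoters, and TGTGGTT (RUNX) in Cd300lf alone, with 5.27%. A match is a description of the letters and not a bound site.

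Levels are given in FPKM, fragments scaled to transcript length and to the mapped fragments of the library, which allow genes of different length to be set beside each other. A gene was counted as lower or higher when its difference in log2(FPKM + 1) was at least 1 in size, which is 2-fold, and its level in the higher library was at least 5 FPKM. That scale understates the change of low genes, so the ratio of the shares of estimated counts is given too, with a 95% exact conditional (Clopper-Pearson) interval that covers counting error only. The estimated counts added up to 8.57e+06 in the mM-CSF library, 8.94e+06 in the sM-CSF library and 9.09e+06 in the control.

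The sort markers were present in every library. Csf1r, which encodes CD115, had 222 FPKM in the mM-CSF library, 149 in the sM-CSF library and 268 in the control. Adgre1, which encodes F4/80, had 67.5, 65.5 and 101 FPKM in the mM-CSF, sM-CSF and control libraries. Transcripts of other cells were present as well, and their levels differed between libraries: the summed level of 6 B cell markers was 2554 FPKM in the mM-CSF library, 2260 in the sM-CSF library and 1173 in the control, and that of 5 plasma cell markers was 4084, 1317 and 1232 FPKM in the same order. Cd79a and Cd79b gave 1117 and 918 FPKM of the B cell sum in the mM-CSF library, whereas Ms4a1 had 151 there and 155 in the control. With the trend of the differences with gene length removed, the B cell median for mM-CSF minus control went from 1.03 to 0.35. The plasma cell median went from 1.73 to 1.15. In such bulk samples, fewer cells of a type and less RNA per cell cannot be told apart.

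Of the 9 CD300 genes, 5 fell in the mM-CSF library relative to the control, namely Cd300ld5, Cd300ld3, Cd300ld, Cd300lb and Cd300e, and 0 rose. Among all 9789 genes that reached 5 FPKM in either of those libraries, 15.1% were counted as lower and 8.97% as higher. The same 5 members fell in the sM-CSF library relative to the control and 0 rose, where 1.63% of 9683 genes were counted as lower and 0.785% as higher. Both comparisons share the control library, so the overlap is no independent finding. In the mM-CSF library relative to the sM-CSF library, Cd300ld and Cd300ld3 were lower and 0 members were higher, with 8.73% of 9574 genes counted as lower and 3.79% as higher. The rule that chose the family used the first of these comparisons, and each of the others shares a library with it. Nothing is read from the shares of any of them.

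The minimum of 5 FPKM was reached by 8 members in either comparison with the control and by 7 in the comparison of mM-CSF with sM-CSF. Cd300ld3, Cd300ld and Cd300ld5 each reached it in the comparison of mM-CSF with control through the control alone, so their being counted as lower follows in part from the minimum. The same holds for Cd300ld5 in the comparison of sM-CSF with control. It also holds for Cd300ld and Cd300ld3 in that of mM-CSF with sM-CSF, where the sM-CSF library alone reached the minimum. Over all 9 members, the median difference in log2(FPKM + 1) was −1.15 for mM-CSF minus control, −1.30 for sM-CSF minus control and −0.40 for mM-CSF minus sM-CSF. The medians over all genes at the minimum were −0.05, 0.02 and −0.08 in these comparisons.

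In the control, the order of levels was Cd300e, Cd300ld3, Cd300c2, Cd300ld, Cd300a, Cd300lf, Cd300ld5, Cd300lb and Cd300lg, and in the mM-CSF library Cd300ld and Cd300ld3 stood below Cd300lb. With 1 library each, no spread shows which neighbours in this order differ.

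**Figure D1:**
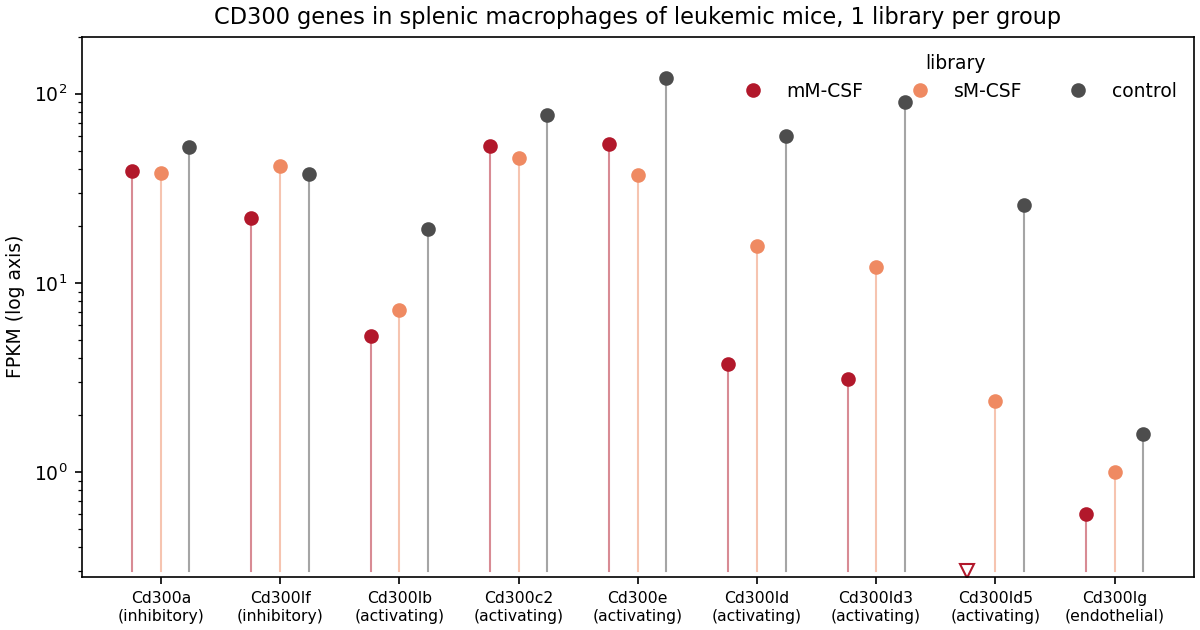
Levels of the 9 CD300 genes in FPKM on a log axis, with 1 point per library in the order mM-CSF, sM-CSF, control; lines drop to the bottom of the axis, and the open triangle marks Cd300ld5, which is not listed in the mM-CSF library. Cd300ld3 stands at 3.11, 12.1 and 90.1 FPKM, while Cd300lf stands at 22.1, 41.7 and 37.8.

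Among the activating receptors, Cd300ld couples to the Fc receptor gamma chain. It had 3.71 FPKM in the mM-CSF library, 15.6 in the sM-CSF library and 60 in the control, from estimated counts of 78.17, 340.43 and 1332.19. Its level was lowest in the mM-CSF library and highest in the control. Its share of counts was 16.1-fold lower in the mM-CSF library than the control (95% interval 12.8 to 20.5), 3.86-fold lower in the sM-CSF library than the control (3.42 to 4.36), and 4.18-fold lower in the mM-CSF than in the sM-CSF library (3.26 to 5.41).

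Cd300ld3 had the widest range of FPKM in the family. It had 3.11 FPKM in the mM-CSF library, 12.1 in the sM-CSF library and 90.1 in the control, from estimated counts of 19.11, 77.05 and 584.11. Its share of counts was 29-fold lower in the mM-CSF library than the control (18.4 to 48.5) and 7.46-fold lower in the sM-CSF library than the control (5.88 to 9.59). Its share was 3.88-fold lower in the mM-CSF than the sM-CSF library (2.33 to 6.8).

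Cd300ld5, its near-identical copy, was not listed in the mM-CSF library and had 2.38 FPKM in the sM-CSF library and 25.8 in the control, from 16.82 and 184.5 estimated counts. Against a floor of 3 counts in the mM-CSF library its share was at least 57.8-fold lower there than the control, with a lower 95% limit of 19.5. In the sM-CSF library it was 10.7-fold lower than the control (6.47 to 18.7). Both values take the deposited division of reads among the copies as given. Set between both M-CSF libraries, Cd300ld5 did not reach the minimum level. Cd300ld4, which is no member, was listed at 1.86 FPKM in the control alone, from 13.3 estimated counts.

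Because a read of any of these copies can be assigned to another, the counts of Cd300ld3, Cd300ld4 and Cd300ld5 were also added. The sum was 19.11 in the mM-CSF library, 93.87 in the sM-CSF library and 781.91 in the control. The share of the summed counts was 38.8-fold lower in the mM-CSF library than the control (24.7 to 64.8) and 8.19-fold lower in the sM-CSF library than the control (6.6 to 10.3). It was 4.74-fold lower in the mM-CSF than in the sM-CSF library (2.87 to 8.22). The order of the libraries was the same for the sum as for Cd300ld3 alone, and it does not depend on how reads were divided among these 3 genes. Cd300ld2, Cd300ld and Cd300lf also share stretches of 50 bases with them and are outside the sum. Cd300ld2 is not listed in these data.

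**Figure D2:**
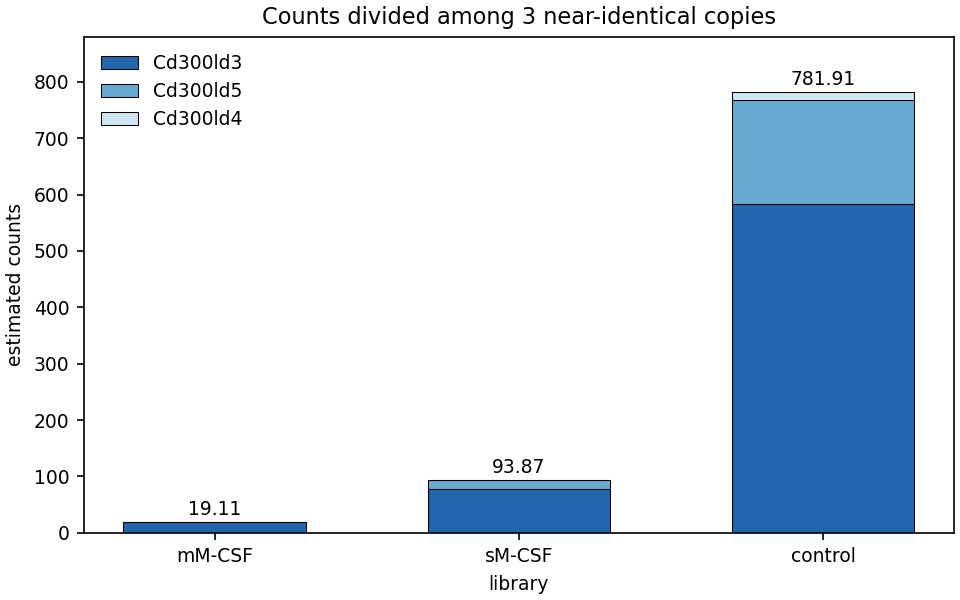
Estimated counts of Cd300ld3, Cd300ld5 and Cd300ld4 stacked for each library (mM-CSF, sM-CSF, control), with the sum above each bar. The bars reach 19.11, 93.87 and 781.91 counts, and Cd300ld3 holds the largest part in each.

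Cd300e and Cd300lb are the members whose counts were whole throughout. Cd300e, known from human monocytes of the non-classical kind, had 54 FPKM in the mM-CSF library, 37.3 in the sM-CSF library and 121 in the control (913, 655 and 2157 counts). It was the highest CD300 gene in the control and stood level with Cd300c2 in the mM-CSF library, and its lowest level was in the sM-CSF library. Its share of counts was 2.23-fold lower in the mM-CSF library than the control (2.06 to 2.41) and 3.24-fold lower in the sM-CSF library than the control (2.97 to 3.54). The difference in log2(FPKM + 1) for mM-CSF minus control was −1.15, and it was −0.97 with upper-quartile scaling, which no longer passes the size rule. In the mM-CSF library relative to the sM-CSF library it was 1.45-fold higher (1.31 to 1.61), short of that rule.

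Cd300lb, which pairs with DAP12, had 5.25 FPKM in the mM-CSF library, 7.22 in the sM-CSF library and 19.3 in the control (131, 187 and 507 counts). Its share was 3.65-fold lower in the mM-CSF library than the control (3.01 to 4.46) and 2.67-fold lower in the sM-CSF library than the control (2.25 to 3.17). The mM-CSF and sM-CSF libraries lay close together, with a difference of −0.40 on the log2(FPKM + 1) scale.

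Cd300c2, an activating receptor that uses DAP12 and the Fc receptor gamma chain, did not pass the size rule. It had 53 FPKM in the mM-CSF library, 45.6 in the sM-CSF library and 77 in the control, from estimated counts of 512.71, 457.75 and 784.34. Its share of counts was 1.44-fold lower in the mM-CSF library than the control (1.29 to 1.61) and 1.68-fold lower in the sM-CSF library than the control (1.5 to 1.89). It was the highest CD300 gene in the sM-CSF library. Its relative Cd300c, which shares 84% of aligned coding positions with it, was barely detected, with 0.7, 2.35 and 1.99 FPKM in the mM-CSF, sM-CSF and control libraries.

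Neither inhibitory receptor passed the size rule in any of the 3 comparisons. Cd300a, which recruits SHP-1 and binds phosphatidylserine and phosphatidylethanolamine, had 39 FPKM in the mM-CSF library, 38.1 in the sM-CSF library and 52.6 in the control (estimated counts of 1576.32, 1600.17 and 2239.54). Its share of counts was 1.34-fold lower in the mM-CSF library than the control (1.26 to 1.43) and 1.38-fold lower in the sM-CSF library than the control (1.29 to 1.47). Both M-CSF libraries were nearly level, and the difference of −0.42 in log2(FPKM + 1) for mM-CSF minus control turned to 0.18 when the trend with gene length was removed.

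Cd300lf, the inhibitory receptor of ceramide that murine norovirus uses to enter cells, was the only member whose level in the sM-CSF library was above the control. It had 22.1 FPKM in the mM-CSF library, 41.7 in the sM-CSF library and 37.8 in the control, from estimated counts of 356.61, 700.37 and 644.49. Its share was 1.7-fold lower in the mM-CSF library than the control (1.49 to 1.94) and 1.88-fold lower in the mM-CSF than in the sM-CSF library (1.65 to 2.14). In the sM-CSF library it was 1.1-fold higher than the control, with an interval of 0.991 to 1.23 that spans 1. The difference of 0.14 for sM-CSF minus control was −0.00 with TPM scaling.

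Gene length bears on these values, since the difference for mM-CSF minus control was lower in longer genes across 9251 genes (Spearman's rho −0.69, a description of this pair of libraries in which genes are not replicates). The rho was −0.45 for sM-CSF minus control and −0.65 for mM-CSF minus sM-CSF. Among the members, Cd300a is the longest with 4642 bases and Cd300ld3 the shortest with 738. With the running trend removed, Cd300ld3 stood at −5.44, Cd300ld at −3.75 and Cd300e at −1.38 for mM-CSF minus control, while Cd300c2 at −1.28 and Cd300lf at −1.03 then also passed the size rule.

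**Figure D3:**
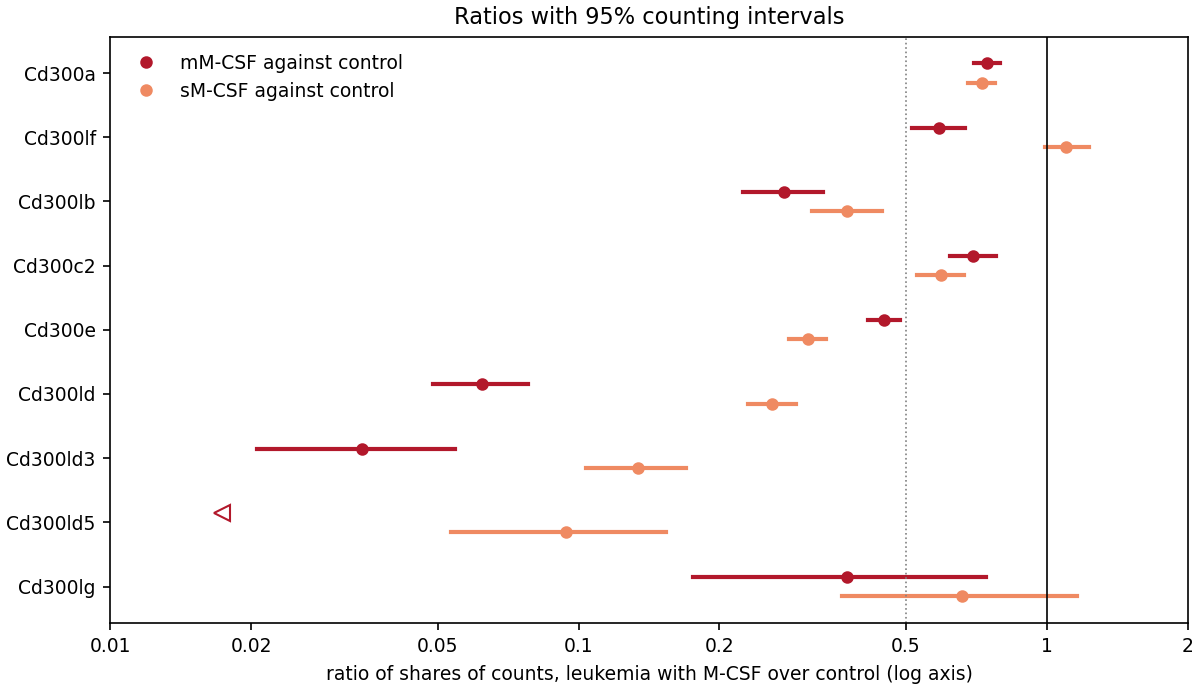
Ratio of the share of counts in each M-CSF library over the control for the 9 CD300 genes (log axis, control at 1, dotted line at 0.5), with 95% exact counting intervals; the open triangle is the floor bound of Cd300ld5 in the mM-CSF library. Cd300ld3 lies at 0.0345 for mM-CSF and 0.134 for sM-CSF, and Cd300a at 0.746 and 0.726.

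Cd300lg had few counts in every library. It had 0.6 FPKM in the mM-CSF library, 1 in the sM-CSF library and 1.6 in the control, from estimated counts of 12.17, 22.06 and 34.13, and it did not reach the minimum level. Its share was 2.67-fold lower in the mM-CSF library than the control (1.35 to 5.67). Of the 10 endothelial markers, 7 were under 1 FPKM in the mM-CSF library, 6 in the sM-CSF library and 4 in the control, and their summed level was 64.4, 69.5 and 75.9 FPKM in the same order. Their part in the values of Cd300lg was not tested.

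Added by role, the 6 genes of the activating group had 119 FPKM in the mM-CSF library, 120 in the sM-CSF library and 393 in the control. The 2 inhibitory genes had 61.1, 79.9 and 90.4 FPKM in the same libraries. The share of counts of the activating group was 3.16-fold lower in the mM-CSF library than the control (2.99 to 3.34) and 3.15-fold lower in the sM-CSF library than the control (2.98 to 3.33). That of the inhibitory group was 1.41-fold lower (1.33 to 1.49) and 1.23-fold lower (1.17 to 1.3) in the mM-CSF and sM-CSF libraries than the control. Activating transcripts per inhibitory transcript stood at 1.95 in the mM-CSF library, 1.5 in the sM-CSF library and 4.35 in the control. Much of that contrast comes from Cd300ld, Cd300ld3 and Cd300ld5, whose low values chose the family. They gave 6.82 of the 119 FPKM in the mM-CSF library, 30 of the 120 in the sM-CSF library and 176 of the 393 in the control. Without them, in a sum chosen after seeing the data, Cd300lb, Cd300c2 and Cd300e had 112, 90.1 and 217 FPKM in the mM-CSF, sM-CSF and control libraries. That is 1.84 activating transcripts per inhibitory transcript with mM-CSF, 1.13 with sM-CSF and 2.41 in the control. These ratios carry the trend with gene length. With that trend removed, Cd300a stood at 0.18 and Cd300lf at −1.03 for mM-CSF minus control. Cd300lb then stood at −1.60, Cd300c2 at −1.28 and Cd300e at −1.38. The ratios were not recomputed on that scale, so whether the libraries keep their order in them was not tested.

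Both M-CSF libraries had nearly the same summed activating level but not the same makeup of it. Cd300e made up 45.4% of the summed activating FPKM in the mM-CSF library, 31.1% in the sM-CSF library and 30.8% in the control. Cd300c2 made up 44.5%, 37.9% and 19.6% in the mM-CSF, sM-CSF and control libraries. Cd300ld3 gave 2.61% in the mM-CSF library, 10% in the sM-CSF library and 22.9% in the control.

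**Figure D4:**
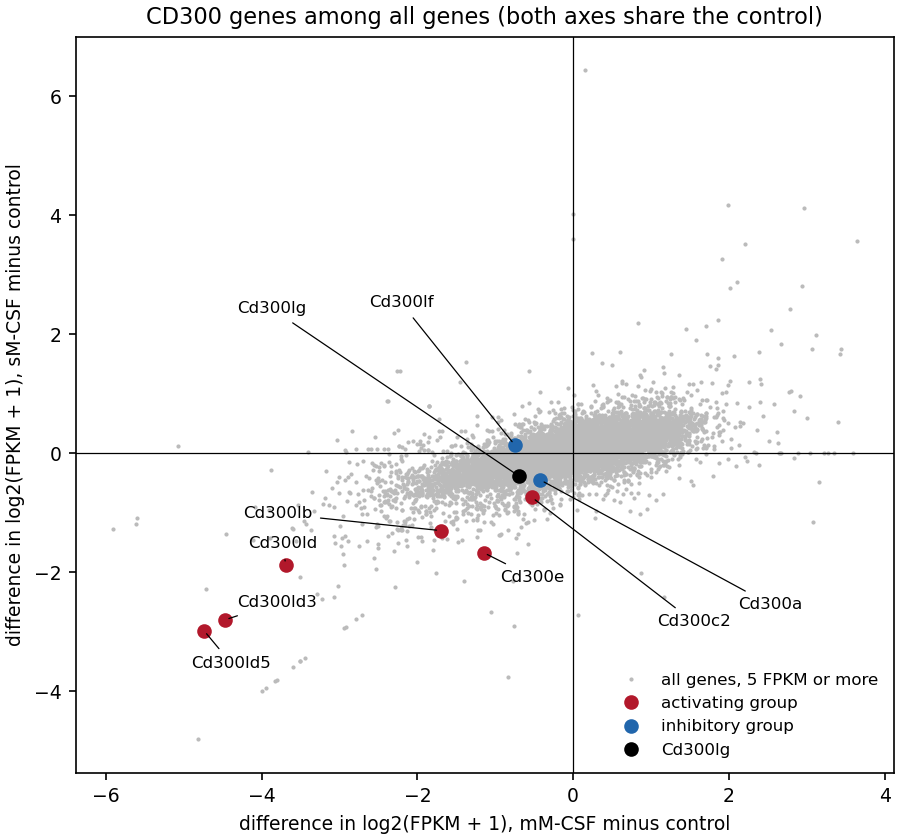
Difference in log2(FPKM + 1) for mM-CSF minus control (x axis) and sM-CSF minus control (y axis), for genes with at least 5 FPKM in 1 of the libraries (grey) and the 9 CD300 genes (activating group red, inhibitory group blue, Cd300lg black). Both axes use the same control, which ties them together; Cd300ld5 lies at −4.74 and −2.98, and Cd300a at −0.42 and −0.45.

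In FPKM, the adaptors through which the receptors signal were not counted as lower. Tyrobp, which encodes DAP12, had 657 FPKM in the mM-CSF library, 476 in the sM-CSF library and 540 in the control. Fcer1g had 857, 483 and 637 FPKM in these libraries. Neither passed the size rule in any of the 3 comparisons. With the length trend removed, Tyrobp stood at −0.78 for mM-CSF minus control and −0.50 for sM-CSF minus control. Fcer1g then stood at −0.57 and −0.69, so both were lower than the control, short of the size rule. Hcst, which encodes the adaptor DAP10, rose to 64.8 FPKM in the mM-CSF library, against 21.4 in the control, and had 32.2 FPKM in the sM-CSF library. With the length trend removed its difference was 0.39, which no longer passes the size rule, and it is among the shortest of these genes with 452 bases.

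Of the 21 genes listed as adaptors and signalling partners, 4 fell and 1 rose in the mM-CSF library relative to the control, with a median difference of −0.59, which was −0.32 with the length trend removed. At the minimum level were 20 of them, and over all genes 15.1% were lower and 8.97% higher, so the counts lie near that background. Those that fell were Fgr, a kinase of the Src family with 32.5, 73 and 117 FPKM in the mM-CSF, sM-CSF and control libraries, Malt1 (15.3, 49.2 and 59.1 FPKM), Pik3cg (9.59, 20.4 and 26.5 FPKM) and Card9 (7.89, 14.6 and 19.7 FPKM). Card9 and Malt1 act together downstream of Syk in myeloid cells. In the sM-CSF library relative to the control 0 fell and 0 rose, with a median of −0.12. With both M-CSF libraries compared, 3 were lower in mM-CSF (Fgr, Malt1 and Pik3cg) and 0 higher, against 8.73% lower over all genes, with a median of −0.53. Once the length trend was removed, that median was −0.16, Fgr stood at −0.93 and Pik3cg at −0.29, and Malt1 at −1.03 alone of the 3 still passed. Pik3cg also stood at −0.42 for mM-CSF minus control and was no longer counted there.

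Phosphatases that inhibitory receptors recruit did not pass the size rule. Ptpn6 (SHP-1) had 237 FPKM in the mM-CSF library, 316 in the sM-CSF library and 298 in the control. Ptpn11 (SHP-2) had 13.6, 20.1 and 24.5 FPKM, and Inpp5d (SHIP-1) 44.9, 74.9 and 81.1 FPKM, in the mM-CSF, sM-CSF and control libraries. Syk, the kinase that binds the adaptors, had 89.2, 133 and 135 FPKM in that order.

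**Figure D5:**
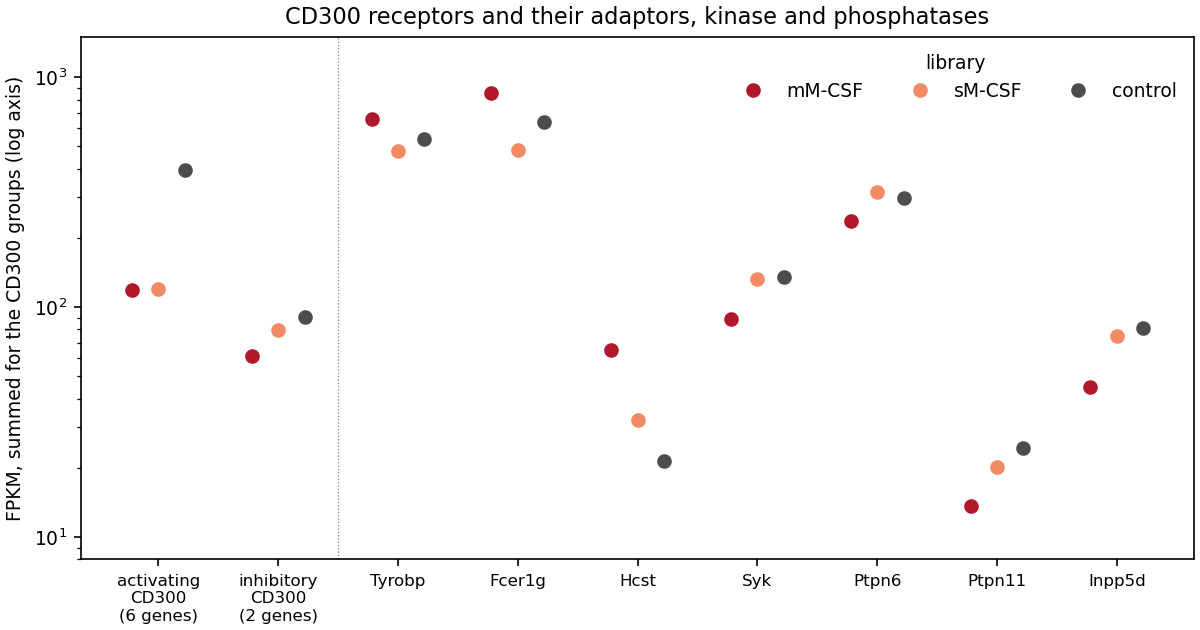
Summed FPKM of the activating and inhibitory CD300 groups (left of the dotted line) and FPKM of adaptors, Syk and phosphatases (right), on a log axis with 1 point per library in the order mM-CSF, sM-CSF, control. The activating sum is 119, 120 and 393 FPKM, while Tyrobp stands at 657, 476 and 540.

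Other receptors of the paired immunoglobulin type were listed for comparison, of which 32 of 33 matched a gene in the tables and 24 reached the minimum in either comparison with the control. In the mM-CSF library relative to the control 5 fell (Trem1, Pirb, Sirpb1a, Sirpb1b and Sirpb1c) and 1 rose (Clec4a2, a lectin receptor placed in the list for its inhibitory tail), with a median of −0.24, against 15.1% lower and 8.97% higher over all genes. In the sM-CSF library relative to the control 4 fell (Trem1, Trem3, Lilrb4a and Sirpb1c) and 0 rose, with a median of −0.20, against 1.63% lower over all genes. Trem1, which amplifies inflammatory signals through DAP12, had 0.27 FPKM in the mM-CSF library, 0.92 in the sM-CSF library and 6.37 in the control. It reached the minimum through the control alone, as did Trem3 for sM-CSF against control. Sirpb1c, a DAP12 partner whose counts were not whole, had 9.56, 10.9 and 31.4 FPKM in these libraries. Pirb, an inhibitory receptor, had 53.8 FPKM in the mM-CSF library, 113 in the sM-CSF library and 129 in the control. Of both M-CSF libraries, mM-CSF had Pirb lower and Clec4a2 higher, with a median of 0.06. Pirb, once that trend with length was removed, stood at −0.92 there and was no longer counted.

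Receptors and bridging proteins of phosphatidylserine, a ligand that several CD300 receptors share, gave a mixed picture. Of 15 genes, 3 fell (Havcr2, Mertk and Itgav) and 1 rose (Gas6) in the mM-CSF library relative to the control, and the median was 0.27. The minimum was reached by 10 of them, and 15.1% were lower and 8.97% higher over all genes. Havcr2 and Itgav reached it through the control alone, and Gas6 through the mM-CSF library alone, so their being counted follows in part from the minimum. In the comparison of mM-CSF with sM-CSF, Havcr2 and Itgav reached it through the sM-CSF library alone. With the length trend removed Mertk stood at −0.87 and Itgav at −0.79, so neither passed the size rule, and the median was 0.74. In the sM-CSF library relative to the control 0 fell and 0 rose, with a median of −0.10. Havcr2, which encodes TIM-3, had 4.8 FPKM in the mM-CSF library, 31.9 in the sM-CSF library and 41 in the control. Havcr2 and Itgav were also lower in the mM-CSF library than in the sM-CSF library, where 0 were higher and the median was 0.29, but Itgav stood at −0.40 there once the length trend was removed.

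Markers of other myeloid cells differed between the libraries too, and not all in the direction of the CD300 genes. The 11 markers of non-classical monocytes, a list without CD300 genes, summed to 709 FPKM in the mM-CSF library, 749 in the sM-CSF library and 1464 in the control. Relative to the control, 6 of these fell with mM-CSF and 6 with sM-CSF, with medians of −1.14 and −1.01. All 11 reached the minimum, and over all genes 15.1% were lower with mM-CSF and 1.63% with sM-CSF. For mM-CSF against control, Ace reached it through the control alone. Ace had 4.09 FPKM in the mM-CSF library, 26.5 in the sM-CSF library and 132 in the control, and Nr4a1 had 21.7, 94.8 and 266 FPKM. The 9 markers of conventional dendritic cells summed to 75.4, 314 and 367 FPKM in the mM-CSF, sM-CSF and control libraries. Of those 8 fell in the mM-CSF library relative to the control, 1 in the sM-CSF library relative to the control, and 8 were lower with mM-CSF than with sM-CSF. All 9 reached the minimum, and 8.73% of all genes were lower with mM-CSF than with sM-CSF. In both comparisons of the mM-CSF library, Zbtb46, Xcr1, Clec9a, Cd209a and Zfp366 reached it through the other library alone. All 11 non-classical markers were above 1 FPKM in every library, and so were all 9 dendritic markers except 1 in the mM-CSF library. The sum of the 8 neutrophil markers went the other way, with 264 FPKM in the mM-CSF library, 65 in the sM-CSF library and 56.9 in the control. Relative to the control, 4 of them rose with mM-CSF and 0 fell. Of the mM-CSF sum, S100a8 gave 122 FPKM and S100a9 74.5, and both are short genes. Mmp9 stood at −0.66 and Cxcr2 at −0.24 for mM-CSF minus control. With the length trend removed, the neutrophil median went from 1.35 to 0.47, and Ngp at 0.82 no longer passed the size rule. Camp reached the minimum through the mM-CSF library alone. Of 7 classical monocyte markers 1, Ly6c2, rose with mM-CSF and 0 fell, and their sum was 418, 296 and 214 FPKM in the mM-CSF, sM-CSF and control libraries. For mM-CSF against control, 5 neutrophil and 6 classical monocyte markers reached the minimum, and 8.97% of all genes were higher. The 10 macrophage markers summed to 1758, 1160 and 1570 FPKM in the same order of libraries. The part of these cells in the CD300 values was not tested.

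Set against Csf1r in the same library, the difference of Cd300ld3 in log2(FPKM + 1) was −4.20 for mM-CSF minus control and −1.97 for sM-CSF minus control. That of Cd300ld was −3.43 and −1.05, and that of Cd300e −0.88 and −0.84. Cd300a stood at −0.15 and 0.38 on this scale, and Cd300lf at −0.48 and 0.98. Relative to Nr4a1, Cd300ld stood at −0.14 for mM-CSF minus control and −0.40 for sM-CSF minus control. Against the same gene Cd300ld3 stood at −0.91 and −1.33, Cd300ld5 at −1.19 and −1.51, Cd300lb at 1.86 and 0.17, and Cd300e at 2.41 and −0.20. The reading depends on the gene chosen. Relative to Ace, Cd300ld stood at 1.02 and 0.39, Cd300ld3 at 0.24 and −0.53, and Cd300ld5 at −0.03 and −0.71. Cd300lb stood at 3.01 and 0.97 relative to Ace, and Cd300e at 3.56 and 0.60.

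The cluster on chromosome 11 holds 11 genes with a Cd300 symbol in the reference table, of which 10 are listed in these data, and Cd300lg lies elsewhere on that chromosome. Genes beside the cluster did not pass the size rule. Before it, Btbd17 was near 0 and Gprc5c had 1.43, 2.11 and 1.84 FPKM in the mM-CSF, sM-CSF and control libraries. After it, Slc9a3r1 had 86.3, 80.8 and 66 FPKM, Nat9 15.7, 9.44 and 8.31 FPKM and Tmem104 8, 8.69 and 11.1 FPKM in these libraries. Rab37, which overlaps Cd300lf, had 12 FPKM in the mM-CSF library, 15.9 in the sM-CSF library and 12.2 in the control, and reads of overlapping genes may be assigned to either.

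The genes most like the 3 most abundant members were sought among 6951 genes with a mean of at least 10 FPKM, by the distance between their pairs of differences from the control over 3 libraries. Nearest to Cd300e were Ifi204 (distance 0.362), Ccl6 (0.491), Tal1 (0.514), Sirpb1c (0.519) and Atp1b2 (0.524), and 0 genes lay within 0.25 of it. Cd300c2 had 45 genes within 0.25, with Rras, Sec14l1, Clec4a1, Kif11 and Tlr2 nearest. Cd300a had 200, with Rnf149, Plaur, Amd1, Atp2b1 and Aldh18a1 nearest. Ifi204, an interferon-inducible gene, had 10.8 FPKM in the mM-CSF library, 7.86 in the sM-CSF library and 21.8 in the control.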

How the data were processed

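RNA of sorted splenic macrophages was measured in 3 libraries. The submitters' processing notes name Bowtie2 2.2.5 and RSEM without their roles. The genome build, annotation, strand setting and read length are not given in the sources used here. The deposited tables give for each NCBI gene ID, per the file headers, an FPKM value, a length and an expected count. The authors' expected counts are estimates and were rounded for the ratios of shares. The deposited FPKM values are scaled by the authors to each library's fragments and to a length from which 36.5 bases, as the values imply, had been subtracted. Other deposited values are gene lengths in bases, used to describe the length trend. Genes that a table does not list were taken as 0, and a floor of 3 counts corresponds to 0.35 (mM-CSF), 0.335 (sM-CSF) and 0.33 (control) CPM.

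Symbols came from a GRCm38.p6 table and matched 17561 of 17615 genes, leaving 54 without a symbol. Of 164 list symbols, 161 matched. Differences were taken on log2(FPKM + 1). With 1 library a group no test was made, and the intervals cover counting error only. The length trend was a running median of differences, with genes in 20 bins by length. Coding sequences were aligned globally with Biopython 1.88, and intervals were computed with scipy 1.17.1. Counting steps were tested on made-up libraries with known answers. The named genes were all members, other Cd300 genes, list genes that pass the size rule, a few defining genes, the cluster's neighbours and the genes most like the 3 most abundant members; Trem3 and other list genes follow that rule. Members and lists were chosen with earlier results of these data known. The alternatives were other scalings (TPM, median of ratios, upper quartile, macrophage markers), pseudocounts, minimum levels, a 1.5-fold size rule, the length trend removed, and members summed or left out.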

Additional observations from a re-analysis of the deposited data

How the results depend on the processing

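The counts and medians of the family were recomputed under 15 alternatives, 3 of them chosen after seeing the data, which gave 135 values. Of these, 119 stayed within 1.5 times the reported count or, for a median, within the counting interval of a typical member. That tolerance admits 4 (upper-quartile scaling) to 7 (length trend removed) members lower for mM-CSF against control. The minimum level and the size rule cannot move a median, so part of the 119 was fixed in advance. Members counted as higher were 0 under every alternative, and these values are among the 119 too. With TPM scaling the family median was −1.62 for mM-CSF minus control and −1.50 for sM-CSF minus control. With only the 2 members of whole counts (Cd300e and Cd300lb), 2 were lower with mM-CSF than the control, 2 with sM-CSF than the control and 0 with mM-CSF than sM-CSF, and the median was −1.49 for sM-CSF minus control and reversed to 0.06 for mM-CSF minus sM-CSF; fewer entries make these counts smaller by construction. With Cd300ld, Cd300ld3 and Cd300ld5 summed to 1 entry, 3, 3 and 1 entries were lower (mM-CSF against control, sM-CSF against control, mM-CSF against sM-CSF), with medians of −0.75 and −0.74 against the control. Scaling to macrophage markers gave −1.09 for sM-CSF minus control and −0.81 for mM-CSF minus sM-CSF. The median for sM-CSF minus control was −1.02 with Cd300ld3, Cd300ld4 and Cd300ld5 summed and −1.49 without Cd300lg. The cause of the other changes was not tested.

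TPM scaling moved the median of all genes to −0.54 (mM-CSF minus control), −0.13 and −0.42, upper-quartile scaling to 0.14 in the first, and macrophage markers to −0.28, 0.25 and −0.55. Against 878 higher and 1480 lower genes for mM-CSF against control, TPM scaling gave 281 and 3406, upper-quartile scaling 1333 and 1126, median-of-ratios scaling 1087 and 1309, and the length trend removed 289 and 790. Of 366 member values 319 stayed within the counting interval of the member, which is wide where counts are few. Alternatives that change only the minimum level, the size rule, or which members are summed or left out cannot move a member's own value. Many of the 319 therefore agree by construction. For mM-CSF minus sM-CSF, Cd300a and Cd300c2 changed sign with TPM and macrophage-marker scaling, and Cd300c2 with the length trend removed (−0.32). Cd300lf passed the size rule there with the length trend removed (−1.09), TPM (−1.21) and macrophage markers (−1.35).

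No paired analysis was possible because the labels give 1 library per group and no replicate numbers; for the same reason none was left out. Precision is limited by depth for Cd300lg, Cd300c and Cd300ld4, with at most 34.13 estimated counts a library, and Cd300ld5 was not detectable in the mM-CSF library above the floor of 3 counts.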
